A study of Mus musculus with 6 samples.

Results

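The SLC15 family of proton-coupled oligopeptide transporters was described in mouse gastrocnemius muscle. Its 5 members, Slc15a1 to Slc15a5, were taken by gene symbol from 54532 genes of the deposited count table. The family was selected on measured values of these same libraries, namely the counts in the transgenic and the control group, where Slc15a5 was already known to differ. The difference of each member between the groups is therefore given as a description, without a test.

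Members of this family carry short peptides across a membrane together with protons, so that a proton gradient drives the uptake. Slc15a1 (PEPT1) is the peptide carrier of the intestinal brush border, and Slc15a2 (PEPT2) is the high-affinity carrier of kidney tubule, choroid plexus and glia. Slc15a3 (PHT2) and Slc15a4 (PHT1) sit in endosomes and lysosomes, carry histidine as well as peptides, and are prominent in immune cells, where Slc15a4 takes part in signalling by endosomal Toll-like receptors. Slc15a5 is an orphan member whose substrate is not established. Skeletal muscle holds large amounts of histidine-containing dipeptides such as carnosine and anserine.

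RNA was sequenced from whole gastrocnemius of C57BL/6J mice aged 3 months, all given 0.2% doxycycline to drink since they were 4 weeks old. Controls (3 libraries) had the genotype Mck cre, in which the muscle creatine kinase promoter drives Cre in striated muscle. The other 3 came from Mck cre; Tg Glut1-Hk2-Pfkfb3, which adds a transgene named for a glucose carrier, a hexokinase and a regulator of glycolysis. Nothing in the labels ties the libraries of a group to separate animals, so the spread between them may be partly technical.

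Library totals ran from 19546456 to 24665024 counts, and 3 counts in a library corresponded to 0.120 to 0.145 CPM (counts scaled to a common library size by edgeR's TMM method). The genes named in the transgene were not called by edgeR at an adjusted p under 0.05: Slc2a1, which encodes Glut1, had 16.04 ± 6.30 CPM in controls against 10.4 ± 2.79 CPM, Hk2 169 ± 16.1 against 230.3 ± 96.1 CPM, and Pfkfb3 1087 ± 503 against 379.5 ± 227 CPM (SD, n = 3 each; adjusted p = 0.290, 0.381 and 0.196 by edgeR). The means of Slc2a1 and Pfkfb3 thus went against the label, so the second group is called by its label throughout. Slc2a1 values overlapped, at 12.0 to 23.3 CPM in controls and 8.05 to 13.5 CPM in the other group. The higher Hk2 mean came from transgenic replicate 1, at 341 CPM, with 168 and 182 CPM in transgenic replicates 2 and 3. The 7 markers of muscle fibres, among them Ckm, Acta1 and Myh4, summed to 95532 to 144737 CPM, so the labelled tissue was present in every library. Control replicate 1 stood apart by lymphocyte RNA: 6 B cell markers summed to 477 CPM there against 6.90 to 56.5 CPM in the other 5 libraries, and 6 T cell markers to 86.0 CPM against 0.520 to 3.64 CPM. In bulk tissue, a change in the number of cells of a type and a change in RNA per cell cannot be told apart.

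Slc15a5 was close to absent from control muscle and present in every library labelled transgenic, while Slc15a2 was lower in every library labelled transgenic and nearly lost from 1 of them. The lysosomal members did not divide by group. Slc15a4 varied about as much within the groups as between them, and Slc15a3 was highest in the control library with lymphocyte RNA. Slc15a1 was at or near the limit of counting throughout. After the filter on low counts 4 members were tested among 14973 genes, and Slc15a1 was left out by it. Slc15a5 passed it through the libraries labelled transgenic alone. The CPM values of the groups did not overlap in 2 of the 4, Slc15a5 and Slc15a2, where 27.4% of all genes showed no overlap. Because the group difference chose the family, nothing is read from this share.

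**Figure D1:**
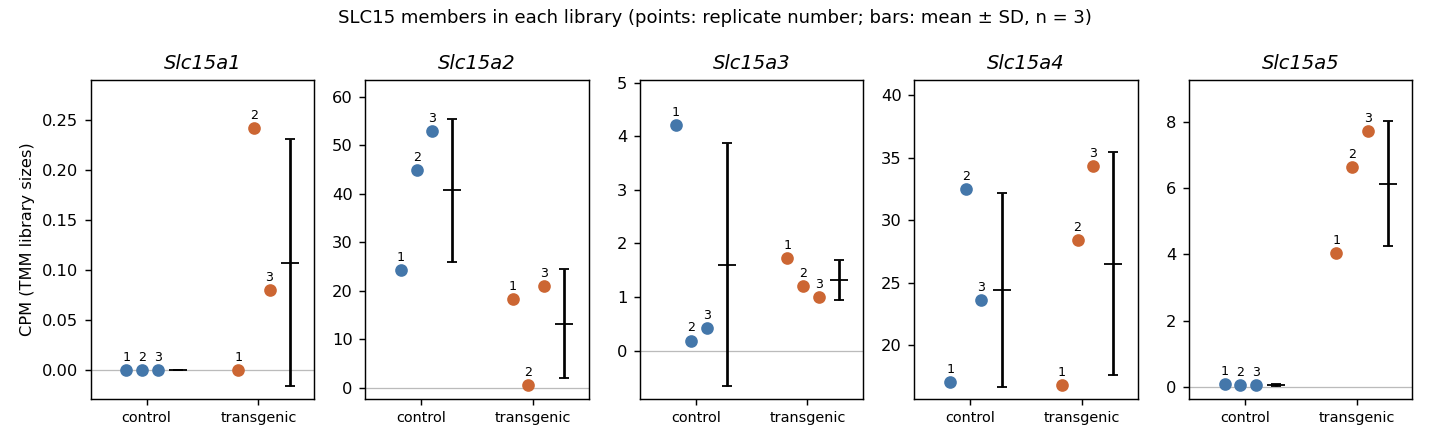
CPM of each SLC15 member (y axis, a separate linear scale per gene, which for Slc15a4 does not start at 0) in the 3 control and 3 transgenic libraries; numbers beside the points are replicates and black bars give the mean ± SD (n = 3). Slc15a5 lies between 4.05 and 7.73 CPM in the transgenic libraries and below 0.1 CPM in all controls, and transgenic replicate 2 is at 0.485 CPM for Slc15a2.

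The sequences before the RefSeq starts of Slc15a5 and Slc15a2 are shown because these are the members whose groups did not overlap. They were read from the RefSeq promoter table of build GRCm38.p6, which held 4 of the 5 members, and each run covers the 250 bases before the start, 5′ to 3′ on the gene's minus strand. Slc15a5 lies at chr6:138079917-138080166 and Slc15a2 at chr16:36784963-36785212. Capitals would mark a match, on either strand, to the E-boxes CACGTG and CAGCTG, the AP-1 motif TGANTCA, the cyclic AMP element TGACGTCA, the CCAAT box CCAAT or the TATA box TATAAA.
Slc15a5: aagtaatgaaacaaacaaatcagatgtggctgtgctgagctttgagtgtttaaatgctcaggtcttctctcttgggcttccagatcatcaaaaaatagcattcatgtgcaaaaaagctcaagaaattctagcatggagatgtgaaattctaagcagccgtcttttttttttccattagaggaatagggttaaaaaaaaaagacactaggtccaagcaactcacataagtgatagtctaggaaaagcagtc
Slc15a2: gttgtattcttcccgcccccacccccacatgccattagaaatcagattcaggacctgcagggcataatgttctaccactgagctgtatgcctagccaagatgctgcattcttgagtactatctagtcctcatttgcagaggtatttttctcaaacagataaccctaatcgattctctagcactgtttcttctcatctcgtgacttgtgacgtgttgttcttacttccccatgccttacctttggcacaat

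Neither window held any of the 6 motifs, which says only that these letters are not in these bases. Over 32851 promoter entries of the same length, CACGTG was found in 6.02%, CAGCTG in 13.0%, TGANTCA in 6.75%, TGACGTCA in 1.55%, CCAAT in 33.8% and TATAAA in 12.4%. None of these motifs contains another. The Slc15a5 window was rich in A and T, at 62.8% of bases against a median of 47.6% over all entries, which placed it at percentile 92.1 of the entries. The Slc15a2 window had 54.8% A and T. The Slc15a1 and Slc15a4 windows had 38.0% and 37.2%, so the Slc15a5 window had the highest share of the 4 members with an entry. The only match among the 4 members was CAGCTG in the Slc15a1 window, beginning 52 bases before the start.

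The plasma membrane carriers came first. Slc15a1 (ENSMUSG00000025557, GRCm38 chromosome 14, 121459621 to 121505252, minus strand) had 0 counts in all 3 control libraries. It had 0, 5 and 2 counts in transgenic replicates 1, 2 and 3. A count of 0 over the pooled controls allows up to 0.0449 CPM (3 counts over the group). Transgenic replicate 2, at 0.242 CPM, was the only library above 3 counts, and its exact Poisson interval ran from 0.0787 to 0.566 CPM. That interval lay above the pooled control bound, but it overlapped those of the single control libraries, whose upper bounds were 0.154 to 0.174 CPM, and transgenic replicate 1 had 0 counts like the controls.

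Slc15a2 (ENSMUSG00000022899, GRCm38 chromosome 16, 36750177 to 36784962, minus strand) has 22 exons in its longest coding transcript of GENCODE M21. Its counts were 583, 951 and 1149 in control replicates 1, 2 and 3, or 24.3, 44.9 and 53.0 CPM. In transgenic replicates 1, 2 and 3 they were 441, 10 and 526, or 18.2, 0.485 and 21.1 CPM. The groups did not overlap, but the margin at the nearest pair was narrow, 21.1 against 24.3 CPM, and their exact Poisson intervals, 19.3 to 22.9 and 22.4 to 26.4 CPM, overlapped.

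Slc15a2 averaged 40.7 ± 14.8 CPM in controls against 13.3 ± 11.2 CPM in the other group (SD, n = 3 each), and the log2 fold change was -1.61 ± 0.87 (SE). Much of that size came from transgenic replicate 2. Without it the log2 fold change was -1.05. The 10 counts of that library, with an exact Poisson interval of 0.232 to 0.891 CPM, were 37.6-fold below the next lowest library in CPM. These intervals, like the floors, cover counting error only.

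Genes with a single low library were counted after the value of Slc15a2 had been seen. Among 9335 tested genes with at least 5 CPM in the 5 highest libraries, 4 had 1 library at least 4-fold below all others. At 8-fold there were 2, Slc15a2 in transgenic replicate 2 and Gapdh in control replicate 1, where Gapdh was 13.8-fold below its next library. At 16-fold Slc15a2 was the only one left. Gapdh, a glycolytic enzyme, shares sequence with many pseudogenes, which makes its own count uncertain.

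**Figure D2:**
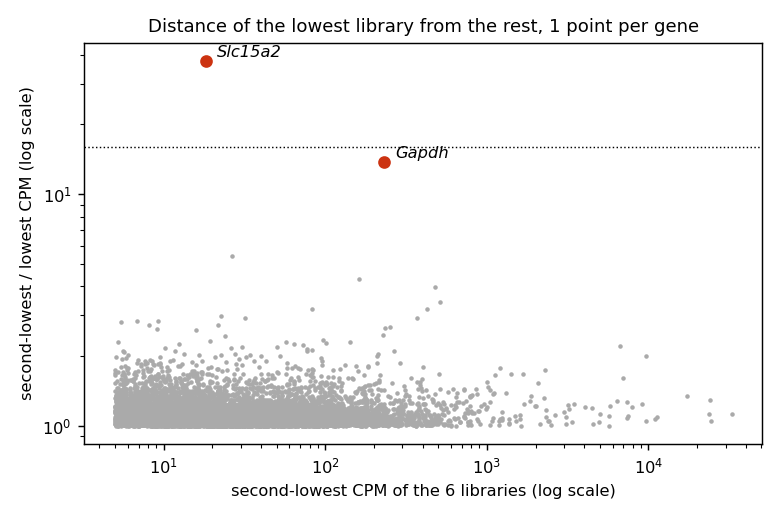
Each point is 1 of 9335 genes: the second-lowest CPM of the 6 libraries (x axis, log scale) against its ratio to the lowest CPM (y axis, log scale), with a dotted line at 16-fold. Slc15a2, at 37.6, is the only gene above the line, and Gapdh follows at 13.8.

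The genes around Slc15a2 were not low in transgenic replicate 2. Of the 44 genes within 500 kb, 9 were tested, and their CPM in that library was 0.925 to 1.65 times the mean of transgenic replicates 1 and 3, against 0.0247 times for Slc15a2. The nearest tested gene, Eaf2, a partner of transcription elongation factors that lies 7.92 kb away, stood at 1.65 times but had under 1 CPM in every library. Iqcb1, a ciliary protein gene 43.4 kb away with 4.21 to 5.95 CPM, stood at 1.03 times, and Golgb1, which encodes a large Golgi membrane protein and lies 90.2 kb away, at 1.201 times. The annotated gene Gm8425 overlaps Slc15a2 by 769 bases on the other strand and had 0 counts in every library. Schwann cell and glia markers were summed because Slc15a2 is a glial carrier. They reached 329, 362 and 221 CPM in control replicates 1, 2 and 3. In transgenic replicates 1, 2 and 3 they reached 350, 229 and 211 CPM. The part of these cells in the Slc15a2 level was not tested.

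By profile, the 3 genes nearest to Slc15a2 were Apoa1, Gm10309 and Alb. Likeness was the root mean square difference of centred log2 CPM over the 6 libraries, and the 11200 candidates were protein-coding genes averaging 2 CPM or more. Their distances were 1.03, 1.03 and 1.42 log2 units, where the median gene was at 2.20. Apoa1 and Alb encode plasma proteins made chiefly by liver, and both were also lowest in transgenic replicate 2, at 0.0485 and 1.02 CPM. Neither was as isolated as Slc15a2: control replicate 1 had only 0.792 CPM of Apoa1 and 3.04 CPM of Alb.

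Among the lysosomal members, Slc15a3 (ENSMUSG00000024737, GRCm38 chromosome 19, 10839727 to 10859362, plus strand) had 101, 4 and 9 counts in control replicates 1, 2 and 3. That was 4.21, 0.189 and 0.415 CPM. In transgenic replicates 1, 2 and 3 it had 42, 25 and 25 counts, or 1.74, 1.21 and 1.001 CPM. The libraries labelled transgenic lay between control replicate 1 and the other two controls, so the groups overlapped. The log2 fold change was -0.33 ± 0.91 (SE) over the 6 libraries. It turned to 2.10 when control replicate 1 was left out, to 0.29 with limma on log2(FPKM + 0.1) and to 0.22 with the replicate number as a block, so no direction is given. Slc15a3 overlaps Tmem132a, on the opposite strand, by 1541 bases, and with the strand setting of the counting not given its level is uncertain to that extent. Tmem132a itself had 24 to 91 counts per library.

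The library with the most Slc15a3 also had the highest sums of leukocyte markers. The 13 macrophage markers summed to 316 CPM in control replicate 1, 125 and 197 CPM in control replicates 2 and 3, and 222 to 311 CPM in the libraries labelled transgenic. The 8 dendritic and plasmacytoid markers reached 62.5 CPM in that library against 15.1 to 23.9 CPM elsewhere. By summed CPM, control replicate 1 was the highest library in each of these lists and in the B and T cell lists. All members of the 4 lists had counts in at least 1 library. The macrophage sum there held 132 CPM of Lyz2. Cd163, Mrc1 and Mertk were instead lower in control replicate 1 than in every transgenic library. Of the 12 tested macrophage markers, 11 had a positive log2 fold change. The dendritic sum there held 35.1 CPM of Irf8, whereas Clec9a and Zbtb46 were highest in a transgenic library. Over all libraries edgeR called 0 of 12 tested macrophage, 0 of 6 dendritic, 0 of 2 B cell and 0 of 3 T cell markers, with 3, 1, 0 and 0 at an unadjusted p under 0.05, and DESeq2 and limma also called 0 of each. The edgeR fit called 1.30% of all genes tested, and 3121 of 14973 had an unadjusted p under 0.05. Without control replicate 1, edgeR called 2 of 12 macrophage and 1 of 3 T cell markers, all higher, where it called 13.0% of all genes. Outside control replicate 1, B cell markers summed to 7.99 and 14.4 CPM in control replicates 2 and 3. They summed to 6.90, 56.5 and 48.8 CPM in transgenic replicates 1, 2 and 3. T cell markers summed to 0.520 and 0.553 CPM in those controls and to 0.785, 3.64 and 1.36 CPM in transgenic replicates 1, 2 and 3. Of these libraries, transgenic replicate 1 had the most Slc15a3 and the lowest B cell sum. The part of any of these cell types in the Slc15a3 level was not tested. The 3 genes nearest to Slc15a3 by profile were S1pr4, a sphingosine 1-phosphate receptor of lymphocytes, Nfkbie, an inhibitor of NF-kB, and Fam78a. Their distances were 0.238, 0.290 and 0.319 log2 units, where the median gene was at 1.31. S1pr4 had 12.9 CPM in control replicate 1, 0.851 and 1.38 CPM in control replicates 2 and 3, and 2.76 to 3.802 CPM in the libraries labelled transgenic.

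**Figure D3:**
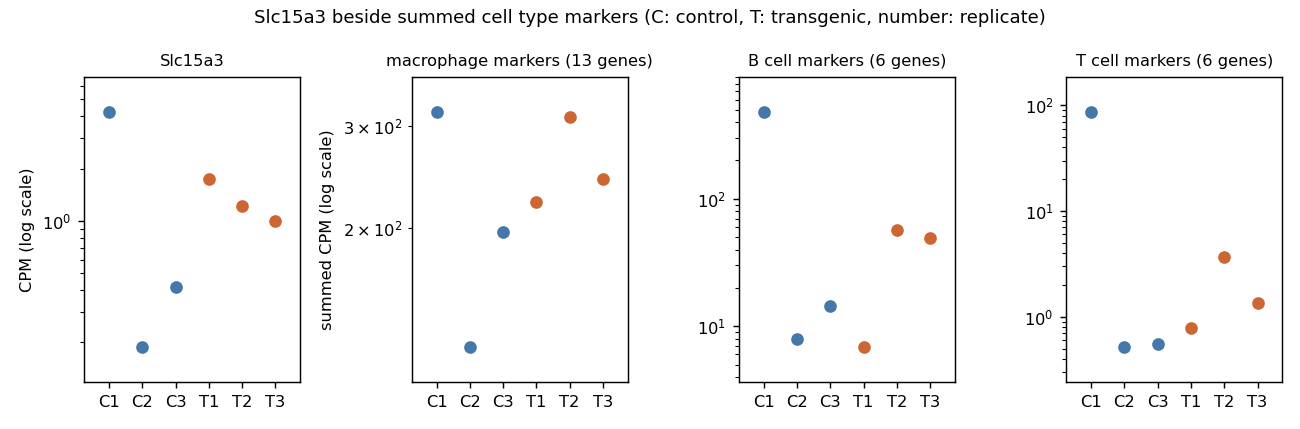
CPM of Slc15a3 and summed CPM of macrophage, B cell and T cell markers (y axes, log scale) in control (C1 to C3, blue) and transgenic (T1 to T3, orange) libraries. Control replicate 1 is the highest library in all 4 panels, at 4.21 CPM for Slc15a3.

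Slc15a4 (ENSMUSG00000029416, GRCm38 chromosome 5, 127595664 to 127632897, minus strand) was the most even of the members with enough counts. It had 17.1, 32.5 and 23.6 CPM in control replicates 1, 2 and 3, and 16.8, 28.4 and 34.4 CPM in transgenic replicates 1, 2 and 3. The groups overlapped fully, and the highest library was 2.04 times the lowest. Means were 24.4 ± 7.75 and 26.5 ± 8.92 CPM (SD, n = 3 each), with a log2 fold change of 0.12 ± 0.31 (SE). That difference was smaller than the spread within either group, and its sign turned without control replicate 1 (-0.09) and without transgenic replicate 3 (-0.11). The 2 genes that overlap it on the other strand, Gm43474 and Glt1d1, had at most 7 counts in any library. The genes nearest to Slc15a4 by profile were Map2k3, a kinase upstream of p38, Nploc4, a cofactor of the p97 segregase, and Fam83g. Their distances were 0.117, 0.123 and 0.135 log2 units, where the median gene was at 0.469. Map2k3 was likewise lowest in control replicate 1 and transgenic replicate 1, at 258 and 234 CPM, and at 329 to 434 CPM in the other 4 libraries.

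The orphan member, Slc15a5 (ENSMUSG00000044378, GRCm38 chromosome 6, 137983586 to 138079916, minus strand), spans 96.3 kb and has 9 exons in its longest coding transcript of GENCODE M21. Control replicates 1, 2 and 3 had 2, 1 and 1 counts, each below the floor of 3 counts. Transgenic replicates 1, 2 and 3 had 98, 137 and 193 counts, or 4.05, 6.64 and 7.73 CPM. The groups were far apart, and within the transgenic group the lowest and highest libraries differed beyond counting error, with exact Poisson intervals of 3.29 to 4.94 and 6.68 to 8.90 CPM. The pooled counts, 4 against 428, gave a CPM ratio of 102, with an exact interval of 39.7 to 378 for counting error. No other gene of the deposited table overlaps Slc15a5, so its counts have no annotated partner on either strand.

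The genes around Slc15a5 were tested, since they played no part in choosing the family. Of 9 genes within 500 kb, 4 passed the filter, and edgeR called 0 of them over all libraries, where it called 1.30% of all genes. At an unadjusted p under 0.05 there were 2, against 3121 of all 14973 genes tested. DESeq2, fitted to all genes with at least 1 count, called 1 of 5, against 983 of 28128 genes. Both of these totals can include genes with too few counts to be called. With limma on log2 FPKM it was 0 of the 4. Eps8, an actin-regulating signalling adaptor 329 kb away, went from 6.88 ± 1.39 to 12.6 ± 1.16 CPM, a log2 fold change of 0.87 ± 0.19 (SE, edgeR adjusted p = 0.0815). Strap, a WD-repeat protein of the SMN complex and of TGF-beta signalling, had -0.43 ± 0.15 (edgeR adjusted p = 0.176). Dera, which encodes deoxyribose-phosphate aldolase, had -0.57 ± 0.27 (edgeR adjusted p = 0.275). The gene on the other side, Mgst1, a microsomal glutathione transferase 60.4 kb away, had 0.17 ± 0.21 (edgeR adjusted p = 0.688). Without control replicate 1, where 13.0% of all genes were called, edgeR called Eps8 higher (log2 fold change 0.97) and Strap lower (-0.58). Around the other members edgeR called 0 of 6, 9, 19 and 1 tested genes within 500 kb of Slc15a1, Slc15a2, Slc15a3 and Slc15a4. At an unadjusted p under 0.05 there were 3, 3, 2 and 0, where all genes gave 3121 of 14973. DESeq2 called 0, 1, 1 and 0 of the genes there and limma 0 of each. Without control replicate 1, edgeR called 0, 1, 2 and 0 of 6, 10, 20 and 1, where it called 13.0% of all genes.

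**Figure D4:**
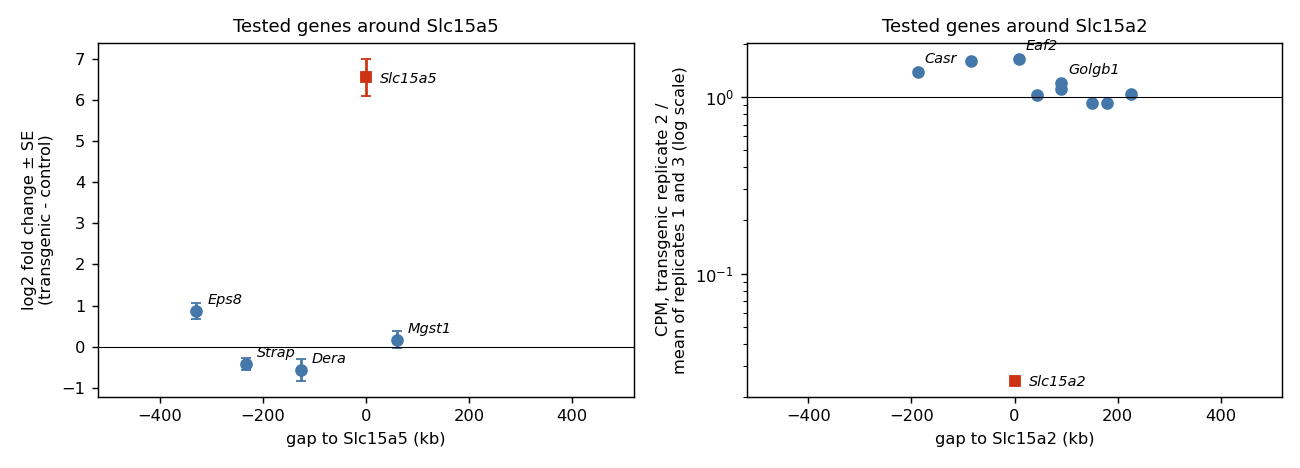
Left: log2 fold change ± SE (y axis, transgenic minus control) of Slc15a5 and the 4 tested genes within 500 kb, against their gap in kb (x axis). Right: CPM in transgenic replicate 2 over the mean of transgenic replicates 1 and 3 (y axis, log scale) for Slc15a2, at 0.0247, and its 9 tested neighbours, at 0.925 to 1.65.

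The 8 genes whose profile over the 6 libraries lay nearest to that of Slc15a5 were Sln, Qprt, Ttc25, Smoc1, Spns3, Slc35g1, Dlk1 and BC067074. Their distances ran from 0.718 log2 units for Sln to 1.53 for BC067074, where the median of 11200 genes was at 2.73. A profile that separates the groups selects genes that do so too, and their group difference is not a test. Sln, the sarcolipin that binds the calcium pump of the sarcoplasmic reticulum, was lowest of its group in transgenic replicate 1, as was Slc15a5. Sln had 20.1, 111 and 105 CPM in transgenic replicates 1, 2 and 3 and 1.84 to 2.93 CPM in controls. Qprt, an enzyme of NAD synthesis, had 37.6, 60.4 and 60.0 CPM there and 0.189 to 2.002 CPM in controls. Spns3, a member of a lysosphingolipid transporter family, was also lowest in transgenic replicate 1, with 1.65, 26.1 and 17.2 CPM against 0.415 to 1.21 CPM. Dlk1, an imprinted inhibitor of adipocyte differentiation, was lowest in transgenic replicate 3, with 5.58, 5.72 and 3.32 CPM against 0.189 to 1.42 CPM.

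Levels of different members were compared per length, on the deposited FPKM scale (fragments scaled by gene length and library size). In controls the order was Slc15a2 (5.53 ± 2.02), Slc15a4 (4.59 ± 1.47), Slc15a3 (0.291 ± 0.409), Slc15a5 (0.0190 ± 0.00676) and Slc15a1, listed at 0 (SD, n = 3). Slc15a2 and Slc15a4 did not differ beyond their spread, with ranges of 3.28 to 7.20 and 3.19 to 6.11 FPKM. In the libraries labelled transgenic the order was Slc15a4 (4.996 ± 1.71), Slc15a5 (1.99 ± 0.625), Slc15a2 (1.80 ± 1.52), Slc15a3 (0.239 ± 0.0667) and Slc15a1 (0.0220 ± 0.0253). There Slc15a5 and Slc15a2 overlapped, at 1.30 to 2.52 and 0.0658 to 2.88 FPKM.

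The ratio of Slc15a5 to Slc15a4 FPKM was nearly constant in the libraries labelled transgenic, at 0.414, 0.402 and 0.387 in replicates 1, 2 and 3. It was 0.00841, 0.00250 and 0.00335 in control replicates 1, 2 and 3. The ratio of Slc15a2 to Slc15a4 FPKM was 1.03, 0.998 and 1.62 in the controls and 0.782, 0.0123 and 0.442 in the libraries labelled transgenic. Across the transgenic libraries the first ratio thus varied less than the second. The first ratio rests on 98, 137 and 193 Slc15a5 counts, whose counting error is wider than its spread.

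Summed over members, the family stood at 7.26, 12.3 and 11.8 FPKM in control replicates 1, 2 and 3 and at 7.20, 7.83 and 12.1 FPKM in transgenic replicates 1, 2 and 3. These totals overlapped, with means of 10.4 ± 2.75 and 9.04 ± 2.67 FPKM (SD, n = 3 each). The make-up differed more than the total. Slc15a5 was 0.125% to 0.370% of the sum in controls and 18.04%, 27.5% and 20.8% in transgenic replicates 1, 2 and 3. Slc15a2 was 45.2% to 61.3% of it in controls and 34.1%, 0.841% and 23.8% in transgenic replicates 1, 2 and 3. In transgenic replicate 2, Slc15a4 alone was 68.3% of the sum, against 37.9% to 49.9% in controls.

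**Figure D5:**
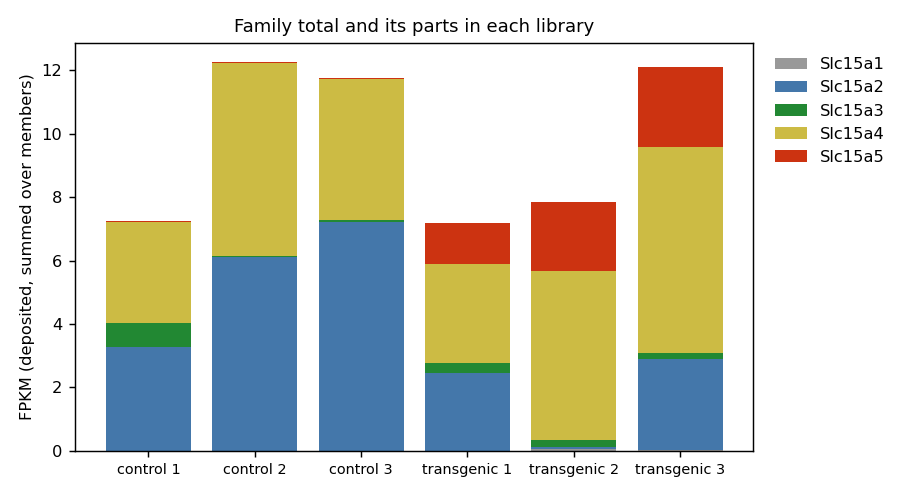
Deposited FPKM of the 5 members (y axis, stacked and summed) in each library (x axis). Slc15a5 is visible in the 3 transgenic libraries, at 18.04% to 27.5% of the sum, and Slc15a2 is missing from the bar of transgenic replicate 2, at 0.841%.

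The other solute carriers were counted without the SLC15 members. Of 235 tested genes with an Slc symbol outside SLC15, edgeR called 4 higher, where it called 0.788% of all genes higher, and 0 lower. These were Slc38a10, Slc44a1, Slc35g1 and Slc2a5, named after their values were seen. Slc2a5, the fructose carrier GLUT5, resembled Slc15a5 in being almost uncounted in controls, at 0.0417, 0 and 0 CPM. It was present in transgenic replicates 1, 2 and 3, at 0.826, 1.16 and 1.16 CPM. Slc2a5 passed the filter through that group alone, so nothing is read from the count of 4 that includes it. Slc38a10 went from 41.6 ± 6.57 to 88.4 ± 2.36 CPM, with a log2 fold change of 1.09 ± 0.14 (SE, edgeR adjusted p = 0.0219). Slc35g1 was also called by DESeq2 and limma, and by edgeR without control replicate 1 or transgenic replicate 1. Without control replicate 2 or 3 or transgenic replicate 2 or 3 it was not (edgeR adjusted p = 0.0724, 0.129, 0.110 and 0.0932). Those fits called 3, 0, 1 and 1 of all genes. The median log2 fold change of the 239 tested Slc genes, SLC15 included, was 0.04, against -0.03 over all genes tested.

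A list of 31 genes held enzymes that make, modify or cleave small peptides, with Hdc and Hal, which act on histidine. All were in the table and 27 of them were tested. With all libraries edgeR called 0 of the 27, where it called 1.30% of all genes. At an unadjusted p under 0.05 there were 5, against 3121 of all 14973 genes tested. DESeq2, fitted to all genes with at least 1 count, called 2 of 31, against 983 of 28128 genes. With limma on log2 FPKM it was 0 of the 27. The median log2 fold change of the 27 was -0.01, with 12 positive. The smallest p belonged to Dpep1, a membrane dipeptidase, at 37.9 ± 8.93 and 67.7 ± 5.94 CPM (log2 fold change 0.84 ± 0.19 SE, edgeR adjusted p = 0.0797). Next was Ggt5, a gamma-glutamyltransferase that acts on glutathione conjugates, at 8.64 ± 2.45 and 15.9 ± 1.70 CPM (0.87 ± 0.22, edgeR adjusted p = 0.0957). Without control replicate 1, edgeR called 4 of 28, all higher, namely Dpep1, Ggt5, Anpep and Ctsc, where it called 13.0% of all genes. Anpep is aminopeptidase N and Ctsc is the lysosomal dipeptidyl peptidase cathepsin C, and both were named after their values were seen. Carns1, the carnosine synthase, had 16.2 ± 6.96 CPM in controls against 15.5 ± 3.44 CPM, and Cndp2, a cytosolic dipeptidase that cleaves carnosine, 27.1 ± 2.10 and 23.8 ± 3.12 CPM. These were likewise picked by role after the fit.

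Genes that set the proton gradient, the sodium-proton exchangers with their PDZ partners and the vacuolar ATPase, made a list of 33 with 29 tested. With all libraries edgeR called 0 of the 29, where it called 1.30% of all genes. At an unadjusted p under 0.05 there were 4, against 3121 of all 14973 genes tested. DESeq2, fitted to all genes with at least 1 count, called 2 of 33, against 983 of 28128 genes. With limma on log2 FPKM it was 0 of the 29. The median log2 fold change of the 29 was -0.02, with 13 positive. The exchangers Slc9a7, of the Golgi, and Slc9a5 had log2 fold changes of 0.86 ± 0.20 and 1.06 ± 0.28 (SE, edgeR adjusted p = 0.0855 and 0.108). Without control replicate 1, edgeR called 4 of 29, where it called 13.0% of all genes, among them Slc9a7, which was higher, and the vacuolar ATPase subunits Atp6v1g1 and Atp6v1h, which were lower.

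The endolysosomal sensing list, built around the setting in which Slc15a3 and Slc15a4 act (nucleic acid and NOD receptors, their adaptors, and the lysosomal mTORC1 scaffold), had 24 of 25 genes matched and 23 tested. With all libraries edgeR called 0 of the 23, where it called 1.30% of all genes. At an unadjusted p under 0.05 there were 3, against 3121 of all 14973 genes tested. DESeq2, fitted to all genes with at least 1 count, called 1 of 24, against 983 of 28128 genes. With limma on log2 FPKM it was 0 of the 23. The median log2 fold change of the 23 was 0.05, with 13 positive. Ripk2, the kinase downstream of NOD receptors, had a log2 fold change of 0.72 ± 0.21 (SE, edgeR adjusted p = 0.125), and Rragd, a Rag GTPase of the mTORC1 pathway, 0.45 ± 0.13 (0.130). Without control replicate 1, edgeR called 1 of 24, Ripk2, which was higher, where it called 13.0% of all genes.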

How the data were processed

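Gastrocnemius RNA of 6 libraries, 3 per group by title and genotype label, was analysed. The submitters' processing notes list GRCm38, featureCounts 1.5.0-p3 and HISAT2 2.0.5. Whether counting used strand, and which annotation release, is not given in the sources used here. Per the file headers, the authors deposited whole-number counts per Ensembl gene and FPKM values. Counts were fitted with edgeR 4.0.16 in R 4.3.3 (TMM scaling, filterByExpr, quasi-likelihood test, Benjamini-Hochberg adjustment over 14973 genes, threshold 0.05). CPM values use TMM library sizes. Alternatives were DESeq2 1.42.0, limma 3.58.1 on log2(FPKM + 1) and log2(FPKM + 0.1), other scalings, no filter, a replicate block and fits without each library. DESeq2 kept its own default filter by mean count. Genes it leaves without an adjusted p cannot be called but stay in the DESeq2 totals. The edgeR step was tested on simulated data. It recovered 5, 31, 47 and 48 of 50 genes changed 1.5-fold, 2-fold, 4-fold and 8-fold. Of its 141 calls, 10 were unchanged genes. The changed genes were not drawn from those with the lowest counts. A list with 0 called genes can thus still hold changes of 2-fold or less.

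Members and lists were chosen with earlier results of these data known. Genes were named by rule: the members, up to 4 genes past the threshold per pathway list or the 2 with the smallest p, tested neighbours of Slc15a5, and the nearest profiles. Profiles are log2 CPM with a prior count of 2. Adipocyte markers, also listed, summed to 48.7 to 229 CPM in controls and 51.2 to 224 CPM in transgenic libraries. The values of 1 gene of the gradient list are not reported here.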

Additional observations from a re-analysis of the deposited data

How the results depend on the processing

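The count of 194 genes called between the groups was 983 with DESeq2, 124 without the filter on low counts, 96 and 98 with limma on log2(FPKM + 1) and log2(FPKM + 0.1), and ran from 0 (without control replicate 3, where 2166 genes had an unadjusted p under 0.05) to 1981 (without control replicate 1) when single libraries were left out. Leaving out control replicate 2 gave 3, and leaving out transgenic replicate 1, 2 or 3 gave 44, 1 and 1. With the replicate number as a block the count was 5. Deviations from the group means correlated at -0.02, -0.17 and 0.16 between groups for replicates 1, 2 and 3, and at -0.17 to 0.18 for unlike numbers. With 3 libraries per group this cannot show whether the numbers pair the libraries. DESeq2, which called 983 of 28128 genes, called 2 of 31 peptide enzymes, 2 of 33 gradient genes, 1 of 24 sensing genes and 1 of 5 neighbours of Slc15a5. Without single libraries edgeR called 0 to 4, 0 to 4, 0 to 1 and 0 to 2. The highest counts came without control replicate 1, where it called 1981 genes. The cause of these shifts was not tested. Slc15a5 was higher in all 13 alternatives, but its log2 difference was 4.09 and 1.53 with limma at pseudocounts of 0.1 and 1, which shrink low values. Slc15a2 was lower in all 13, from -2.31 to -1.05. Scaling by library totals moved the median of all genes to 0.12 from -0.03. Fold changes of genes named only for a profile like Slc15a2, Slc15a3 or Slc15a4 were not reported and not recomputed. Depth limits Slc15a1 in every library and Slc15a5 in the controls.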
